A study of Mus musculus with 9 samples.

Results

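The 36 genes described here encode enzymes of cholesterol and fatty acid synthesis, and the regulators that adjust the transcription of these enzymes to the sterol content of the cell. They were chosen by name for their place in the pathway, out of 38940 genes listed, with earlier results of these data known. A row carried the member's own name for 35 of them, and the 36th, Msmo1, was listed under its older symbol Sc4mol. All 36 reached the mean of 1 FPKM (fragments per kilobase, scaled by sequencing depth) at which genes were tested, as did 11674 genes in all. By role, 6 were regulators or a sterol carrier, 9 were enzymes of the early sterol pathway from acetyl-CoA to squalene, 10 were enzymes of the late pathway from squalene to cholesterol, and 11 belonged to fatty acid synthesis.

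The cells were mouse embryonic stem cells (ESCs), and 3 RNA-seq libraries were made in each of 3 groups. Double KO libraries came from cells described as lacking both Yap and Taz (Yap ∆/∆ Taz ∆/∆), Taz KO libraries from cells lacking Taz with floxed Yap alleles (Yap f/f Taz ∆/∆), and control libraries from cells with floxed alleles of both genes (Yap f/f Taz f/f). YAP and TAZ are transcriptional co-activators of the Hippo pathway that bind TEAD factors. The genotype field of the double KO libraries repeats that of Taz KO (Yapfl/fl/Taz-/-), so the groups follow the titles and descriptions. All groups share one growth and treatment protocol: N2B27 medium with 4 ng/ml Lif, 0.4 µM of the MEK inhibitor PD0325901 and 3 µM of the GSK3 inhibitor CHIR99021, and Cre-ERT2 delivered on a piggyBac transposon and activated with 500 nM of 4-OHT. Whether control cells received Cre-ERT2 or 4-OHT, whether a line is a single clone and whether libraries came from separate cultures is not stated. The p-values therefore rest on the spread among these libraries alone, and that spread may be technical.

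Cholesterol is built from acetyl-CoA through mevalonate, farnesyl diphosphate, squalene and lanosterol. Saturated and unsaturated fatty acids are built from the same precursor through malonyl-CoA. Both branches are transcribed under SREBP factors, which are held in the endoplasmic reticulum by SCAP and INSIG proteins when sterols are plentiful and are cut and sent to the nucleus when sterols run low. Growing cells such as ESCs need both products for new membranes.

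Promoter sequence was available from RefSeq (build GRCm38.p6) for 29 of the 36 genes, as windows of 300 bases from 250 before to 50 after the start of the gene. Windows were not used for Stard4, Fdps, Fdft1, Sqle, Scd1, Scd2 and Fads1. Both strands were searched for TCACNCCAC, a form of the sterol regulatory element bound by SREBP. CCAAT, the box bound by NF-Y, GGGCGG, the GC box bound by Sp1, and GGAATG, the core of the element bound by TEAD factors, were searched likewise. The sequences below are the 250 bases before the start. They show Insig1, the regulator with the lowest log2 fold change in double KO, and Hmgcs1, the single gene of the 29 with TCACNCCAC. Also shown are Nsdhl, an enzyme gene of the late pathway that fell, Fasn, which was not called, and Me1, the single gene that rose. Capitals mark the sterol element, CCAAT and GGAATG on either strand, CCAAT on the other strand reading ATTGG. Insig1 lies at chr5:28071162-28071411 (+ strand), Hmgcs1 at chr13:119690101-119690350 (+), Nsdhl at chrX:72918271-72918520 (+), Fasn at chr11:120824548-120824797 (- strand) and the outer of 2 windows of Me1 at chr9:86695915-86696164 (-).
Insig1: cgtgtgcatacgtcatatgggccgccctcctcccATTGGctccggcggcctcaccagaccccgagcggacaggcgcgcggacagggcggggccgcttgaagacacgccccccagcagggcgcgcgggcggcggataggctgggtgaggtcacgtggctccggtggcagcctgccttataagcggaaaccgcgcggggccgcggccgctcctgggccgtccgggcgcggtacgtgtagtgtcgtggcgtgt
Hmgcs1: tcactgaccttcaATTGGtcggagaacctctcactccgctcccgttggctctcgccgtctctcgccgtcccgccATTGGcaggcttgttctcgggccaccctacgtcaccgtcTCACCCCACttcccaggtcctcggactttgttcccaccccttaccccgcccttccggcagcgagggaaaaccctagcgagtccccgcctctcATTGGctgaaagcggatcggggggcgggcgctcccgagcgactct
Nsdhl: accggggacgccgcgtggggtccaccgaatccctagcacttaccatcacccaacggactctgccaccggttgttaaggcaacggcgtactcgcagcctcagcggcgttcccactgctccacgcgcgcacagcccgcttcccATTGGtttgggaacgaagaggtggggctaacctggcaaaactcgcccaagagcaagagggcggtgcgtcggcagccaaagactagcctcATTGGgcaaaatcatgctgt
Fasn: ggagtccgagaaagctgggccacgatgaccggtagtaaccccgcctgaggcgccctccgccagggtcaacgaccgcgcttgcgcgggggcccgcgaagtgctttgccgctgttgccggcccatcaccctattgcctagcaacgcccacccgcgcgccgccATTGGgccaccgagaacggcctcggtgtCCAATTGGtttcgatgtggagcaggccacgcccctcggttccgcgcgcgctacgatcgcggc
Me1: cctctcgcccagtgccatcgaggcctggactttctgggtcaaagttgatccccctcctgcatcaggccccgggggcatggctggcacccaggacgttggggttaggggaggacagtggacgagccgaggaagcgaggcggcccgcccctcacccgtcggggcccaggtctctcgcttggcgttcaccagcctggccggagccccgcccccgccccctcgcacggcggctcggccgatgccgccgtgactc

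TCACNCCAC stood 137 bases before the start of Hmgcs1 and in no window of the other genes among the 29. It was found in 1.5% of the 8352 tested genes with a window and 1.44% of all 27025 genes with one. Other forms of the sterol element were not searched, so the other members are not shown to lack one. Hmgcs1 also held 3 CCAAT boxes in the printed stretch, Fasn 3, Nsdhl 2 and Insig1 1, and 1 pair in Fasn overlapped on opposite strands. Over the full windows CCAAT was found in 24 of 29 members (82.8%), against 43.8% of tested genes and 41.1% of all genes. GGGCGG was found in 23 members (79.3%), against 71.3% of tested genes and 38.2% of all. GGAATG was found in 2 members, Acss2 and the inner window of Me1 (6.9%), against 14.1% of tested genes and 16.6% of all. A match describes the letters of these windows and not a bound site.

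The libraries held 19.1 to 24.0 M reads recovered from the deposited values, and the members had between 153 reads (Acss2) and 44640 reads (Scd2) in a library. Yap1 was at 4.25 ± 0.334 FPKM in double KO, 18.3 ± 0.346 in Taz KO and 18.4 ± 0.573 in control (SD, n = 3 each), and Wwtr1, which encodes TAZ, at 13.9 ± 0.772, 10.8 ± 1.58 and 12.1 ± 0.847. A value summed over the gene does not check an exon deletion of Wwtr1. All 6 stem cell markers examined, such as Pou5f1 and Nanog, were expressed, and their summed level was 1111 to 1231 FPKM in double KO, 1229 to 1335 in Taz KO and 1288 to 1294 in control. Summed over lists, 5 fibroblast markers lay at 2.75 to 9.75, 1.49 to 4.85 and 1.88 to 3.48 FPKM in the same order of groups (Postn at 0 in all libraries), 5 primitive endoderm markers at 1.98 to 3.73, 1.36 to 3.12 and 1.90 to 2.81, and 5 trophectoderm markers at 47.1 to 54.6, 34.1 to 36.9 and 29.7 to 32.0, with 3 of these 5 under 1 FPKM in every library. The 3 neuroectoderm markers summed to 0.184 to 0.239, 0.426 to 0.866 and 0.719 to 1.31 FPKM and the 4 mesoderm markers to 10.8 to 19.7, 8.78 to 15.4 and 10.2 to 13.1. Their part in the differences below was not tested. In bulk libraries, fewer cells of a type and less RNA per cell cannot be told apart.

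The libraries numbered 2 stood apart in both knockout groups for these genes. Double KO 2 was the lowest of its group for 28 of 36 members (77.8%, against 53% of all tested genes), and so was Taz KO 2 for 28 of 36 (77.8%, against 49.3%), while control 2 was the lowest for 13 of 36 (36.1%, against 44.8%). The median of the members in library 2 minus the mean of libraries 1 and 3 was -0.33 in double KO, -0.24 in Taz KO and 0.02 in control on the log2(FPKM + 0.5) scale. All results are therefore given with all 9 libraries and, where it matters, without the 3 numbered 2, a setting chosen after seeing the data. Values per library are listed in the order 1, 2, 3.

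**Figure D1:**
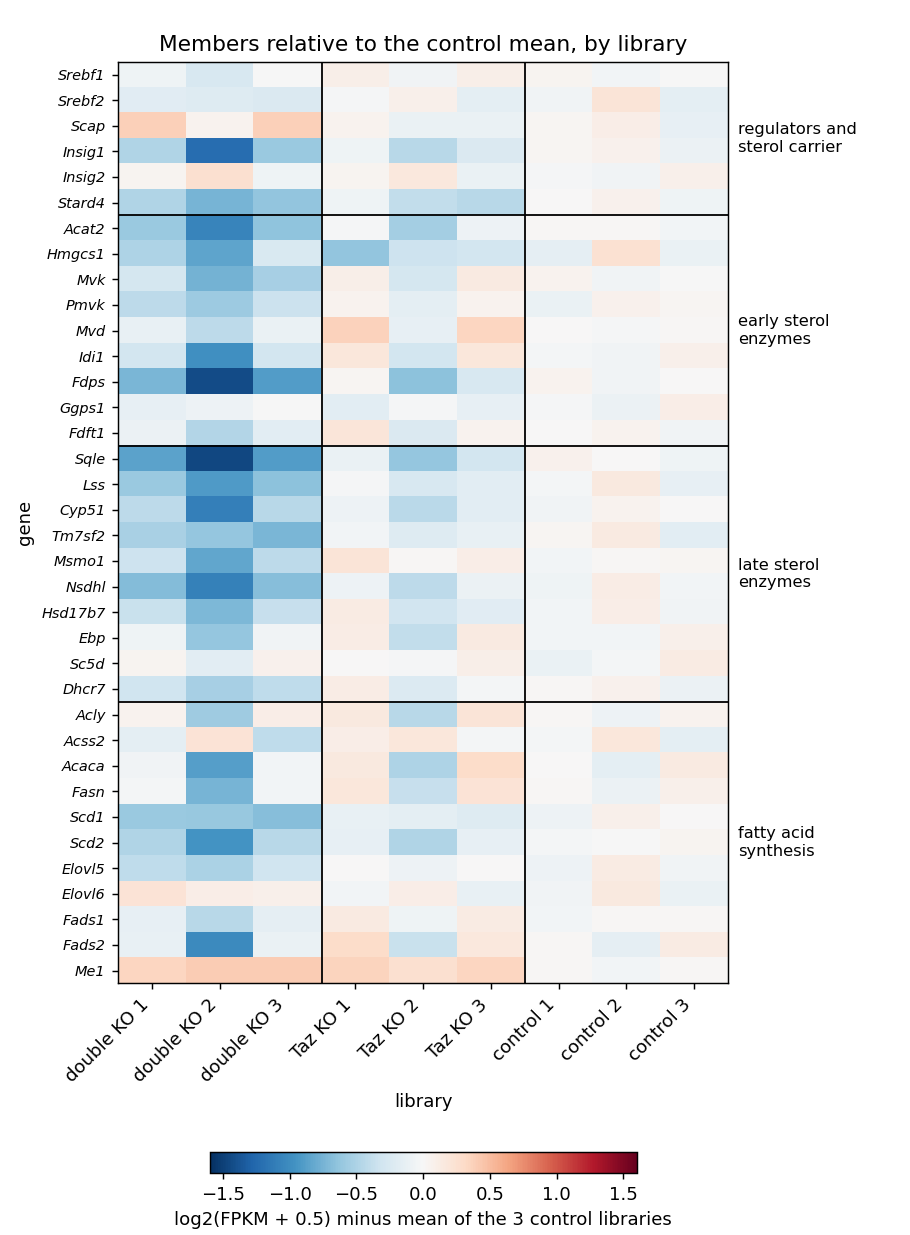
Level of each of the 36 genes (rows, grouped by role) in each of the 9 libraries (columns), as log2(FPKM + 0.5) minus the mean of the 3 control libraries, on a colour scale from blue (lower) to red (higher). Most sterol enzymes are blue across the double KO libraries, and 17 of the 19 are lowest of their group in double KO 2. Sc5d lies slightly above the control mean in double KO 1 and 3. Me1 is red in all 6 knockout libraries.

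The comparison of double KO with control asks what differs in cells labelled as lacking both factors. Sterol synthesis genes were lower in double KO: 12 of 19 sterol enzymes fell and 0 rose, and Insig1 and Stard4 fell with them. Of the 11 fatty acid genes, the desaturase genes Scd1 and Scd2 and the elongase gene Elovl5 fell and Me1, the gene of malic enzyme, rose. In all, 17 of the 36 members fell and 1 rose, where 12.9% of all tested genes fell and 12.4% rose (limma on log2(FPKM + 0.5), Benjamini-Hochberg adjusted p under 0.05 over 11674 genes). Over all genes 1505 fell and 1443 rose, and with equal library totals 1335 fell and 1929 rose. The median log2 fold change was -0.42 over the 36 members and -0.02 over all tested genes. Without the libraries numbered 2 the members' median was -0.27. For 24 members every double KO library lay below every control library, and for 1 above, where 23.8% and 21.7% of all tested genes were apart in these directions.

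Libraries with the same number deviated together over all genes, least clearly those numbered 1, so a block for the replicate number was also fitted. That fit called 23 members lower and 2 higher, where 28.1% of all genes were called lower and 24.2% higher. Without the libraries numbered 2, 17 members were lower and 3 higher (22.5% and 19.4% of all genes). Within pairs of the same number, the median sterol enzyme was lower in double KO than in control by a log2 difference of -0.33 for number 1, -0.83 for number 2 and -0.38 for number 3, and 17 of 19 sterol enzymes were lower in all 3 pairs, as were 37.1% of all tested genes.

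Among the regulators, Insig1 and Stard4 fell while the SREBP genes themselves did not pass the threshold. Insig1 encodes an endoplasmic reticulum anchor that retains SCAP, and is itself a target of SREBP. It was at 78.0, 46.4 and 71.9 FPKM in double KO, 104, 79.9 and 92.8 in Taz KO and 111, 114 and 102 in control. All 3 double KO libraries lay below the other 6, with double KO 2 well below the others. Insig1 (ENSMUSG00000045294, chr5:28071363-28078662, + strand of mm10) fell by 0.77 on the log2 scale (SE 0.18, limma adjusted p = 0.0177), to 59.97% of control. Its adjusted p was 0.0632 without control 1 and 0.0529 without control 2.

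Stard4, which encodes a cytosolic protein that carries cholesterol between membranes, was at 9.78, 8.03 and 8.74 FPKM in double KO, 13.1, 10.4 and 10.02 in Taz KO and 13.8, 14.4 and 13.1 in control. The double KO values lay below both other groups, and Taz KO lay between them and control. It fell by 0.62 against control (SE 0.11, limma adjusted p = 0.00543).

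Srebf2, the gene of the SREBP that mainly drives sterol enzymes, was at 79.1, 77.6 and 75.9 FPKM in double KO, 88.0, 95.1 and 80.1 in Taz KO and 86.3, 103 and 80.5 in control. The double KO libraries were the 3 lowest, by a small margin, with a log2 fold change of -0.21 (SE 0.10, limma adjusted p = 0.176, and 0.0303 with the replicate block). Srebf1, whose SREBP products favour fatty acid genes, was at 29.1, 25.4 and 30.4 FPKM in double KO, 32.5, 29.2 and 32.6 in Taz KO and 31.5, 29.6 and 30.3 in control. These values overlapped (log2 fold change -0.11, 95% interval -0.30 to 0.09, limma adjusted p = 0.392). Exons of Srebf1 overlap Rai1 on the other strand, and the strand setting of the counting is not given.

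Scap, the gene of the SREBP escort protein, was at 6.94, 5.46 and 6.96 FPKM in double KO, 5.43, 4.79 and 4.81 in Taz KO and 5.34, 5.64 and 4.70 in control. Double KO 1 and 3 were the highest of all libraries and double KO 2 lay within the control range. Its log2 fold change was 0.28 (SE 0.11, limma adjusted p = 0.102). The adjusted p was 0.0499 with the replicate block, 0.0269 without double KO 2 and 0.0124 without the libraries numbered 2. Insig2, the second anchor gene, was at 5.86, 6.82 and 5.34 FPKM in double KO, 5.84, 6.38 and 5.19 in Taz KO and 5.54, 5.43 and 5.98 in control, and the groups overlapped (log2 fold change 0.08, limma adjusted p = 0.630).

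**Figure D2:**
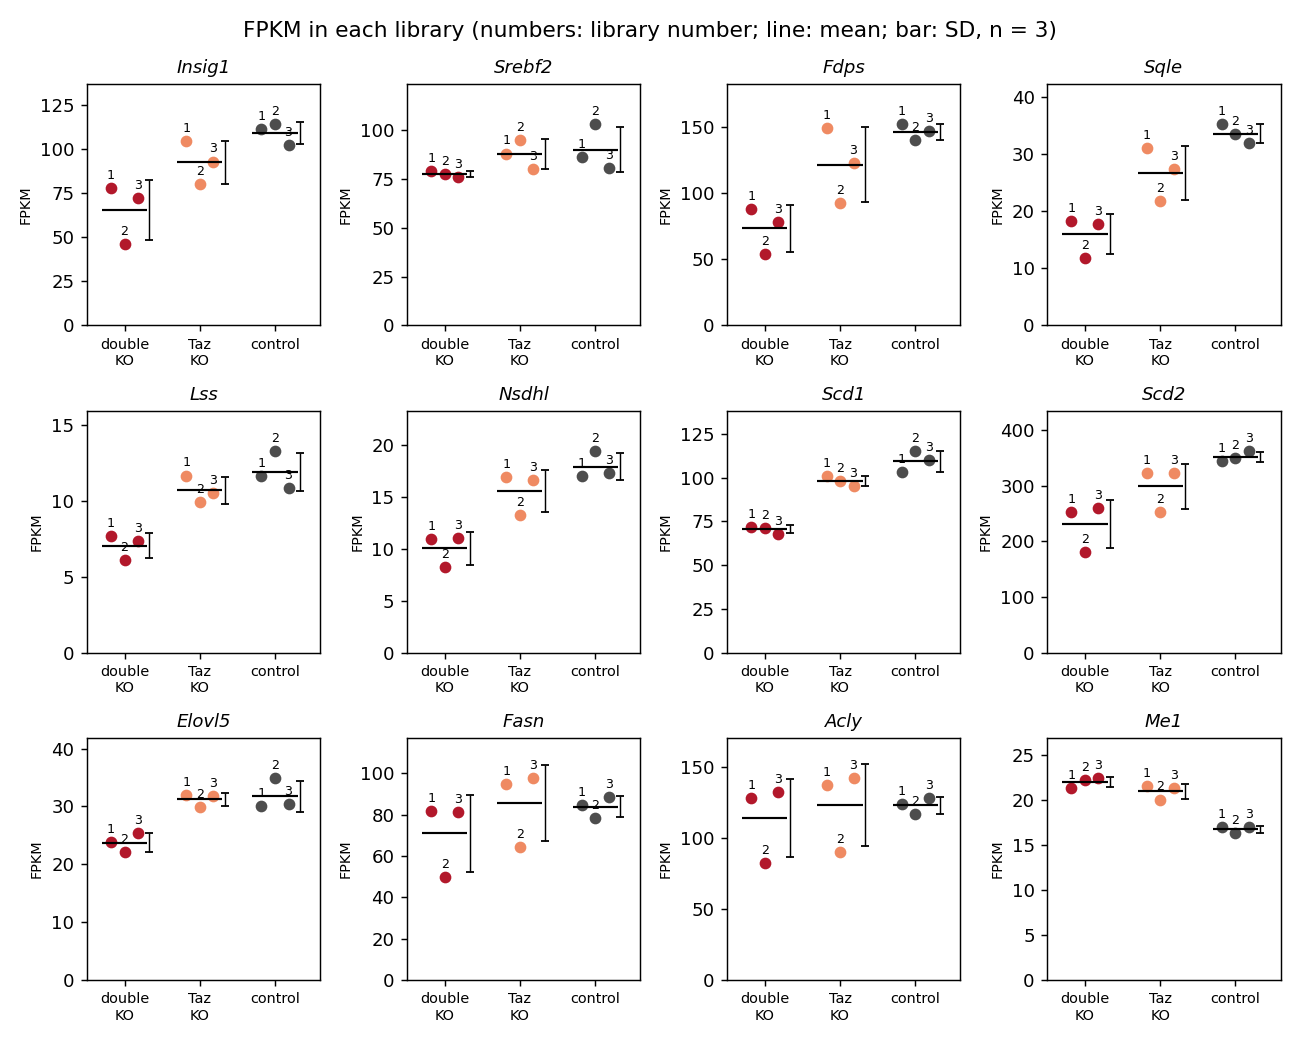
FPKM of 12 of the genes in each library (points, numbered by library) by group (double KO, Taz KO, control), with the mean of each group (line) and its SD (bar, n = 3). Scd1 in double KO (67.8 to 72.1 FPKM) lies apart from control with little spread, while Fasn and Acly are low in double KO 2 and Taz KO 2 and near control in the other knockout libraries.

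In the early sterol pathway 4 of 9 genes fell in double KO and 0 rose, with a median log2 fold change of -0.52. Fdps, which encodes farnesyl diphosphate synthase at the branch towards sterols and prenyl groups, was at 88.2, 53.8 and 78.4 FPKM in double KO, 149, 92.1 and 123 in Taz KO and 152, 140.0 and 146 in control. Every double KO library lay below every other one. Fdps fell by 1.02 on the log2 scale (SE 0.21, limma adjusted p = 0.00875), to 50.2% of control. Its exons overlap Gm43738 on the same strand, so its reads may be shared.

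Acat2, the gene of the cytosolic thiolase that joins a pair of acetyl-CoA in the opening step, was at 25.4, 18.3 and 24.4 FPKM in double KO, 38.1, 26.3 and 36.3 in Taz KO and 39.1, 38.8 and 37.4 in control. Double KO was apart from both groups, and Taz KO 2 came closest to it. Acat2 fell by 0.76 (SE 0.16, limma adjusted p = 0.00977). It has a close copy, Acat3, and reads may be split between them.

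Mvk and Pmvk encode the kinases that phosphorylate mevalonate in succession. Mvk was at 10.7, 7.495 and 8.85 FPKM in double KO, 13.9, 10.6 and 14.4 in Taz KO and 13.6, 12.6 and 13.02 in control. Taz KO 2 fell within the double KO range, and the other Taz KO libraries lay above the control range. Mvk fell by 0.53 against control (SE 0.14, limma adjusted p = 0.0283), and the call was lost without any of 5 libraries (adjusted p = 0.0674 without double KO 2, 0.0751 without double KO 3, 0.0959 without control 1, 0.0580 without control 2 and 0.0736 without control 3) and without a filter on low values (0.0562). Pmvk was at 18.5, 16.5 and 19.5 FPKM in double KO, 26.1, 22.3 and 25.9 in Taz KO and 23.2, 26.2 and 25.6 in control. The double KO libraries were the 3 lowest, and Pmvk fell by 0.45 (SE 0.09, limma adjusted p = 0.00994).

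The other 5 early genes did not pass the threshold. Hmgcs1, which encodes the synthase that makes HMG-CoA, was at 90.6, 70.9 and 108 FPKM in double KO, 82.4, 101 and 105 in Taz KO and 116, 152 and 119 in control. Both knockout groups lay below control and overlapped each other. The log2 fold change of double KO was -0.53 (SE 0.17, limma adjusted p = 0.0507), and the adjusted p was 0.0233 with the replicate block, 0.0354 without double KO 3, 0.0483 among genes with a mean of at least 5 FPKM and 0.0445 by limma-voom on recovered reads.

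Idi1, the gene of isopentenyl diphosphate isomerase, was at 35.4, 21.7 and 35.3 FPKM in double KO, 49.1, 35.2 and 49.2 in Taz KO and 42.6, 41.7 and 45.9 in control, so that double KO 2 set much of the group's spread. Its log2 fold change was -0.52 (limma adjusted p = 0.086, 0.00605 with the replicate block and 0.0053 without the libraries numbered 2). Mvd, the decarboxylase gene, averaged 35.0 ± 4.24 FPKM in double KO, 47.0 ± 8.61 in Taz KO and 40.6 ± 0.627 in control. Fdft1, which encodes squalene synthase, averaged 68.3 ± 9.32, 81.3 ± 12.0 and 80.5 ± 2.91 FPKM in the same groups. Their log2 fold changes against control were -0.22 and -0.24 (limma adjusted p = 0.289 and 0.201). Exons of Fdft1 overlap Ctsb on the other strand.

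Mvd lies on chromosome 8, where the median of 671 tested genes was 0.30 in double KO against control and 0.35 in Taz KO against control, and Fdft1 on chromosome 14, with medians of 0.11 and 0.10 over 398 genes. The part of these shifts in the values of Mvd and Fdft1 was not tested. Between double KO and Taz KO the same chromosomes had medians of -0.03 and 0.00. Chromosomes 6 and Y, which hold no member, were also shifted against control. Their medians were 0.19 and -0.74 in double KO and 0.21 and -0.71 in Taz KO, with 5 tested genes on Y. Between double KO and Taz KO they were -0.01 and 0.11. The cause of these shifts was not tested. Ggps1, which makes geranylgeranyl diphosphate for protein prenylation off the route to sterols, averaged 8.36 ± 0.392 FPKM in double KO, 8.17 ± 0.495 in Taz KO and 8.83 ± 0.633 in control. The 95% interval of its log2 fold change in double KO was -0.25 to 0.11 around -0.07 (limma adjusted p = 0.531). Exons of Ggps1 overlap Arid4b on the other strand.

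In the late sterol pathway 8 of 10 genes fell in double KO and 0 rose, with a median log2 fold change of -0.58. Sqle, the gene of squalene epoxidase, which commits squalene to sterols, was at 18.3, 11.9 and 17.8 FPKM in double KO, 31.1, 21.7 and 27.4 in Taz KO and 35.3, 33.6 and 31.9 in control. The 3 groups did not overlap, with Taz KO in the middle. Sqle (ENSMUSG00000022351, chr15:59315077-59331192, + strand of mm10) had the lowest log2 fold change of the members at -1.07 (SE 0.18, limma adjusted p = 0.00346), at 47.6% of control. Without the libraries numbered 2 the change was -0.88 (adjusted p = 0.000986).

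Lss encodes lanosterol synthase, which closes the ring system. It was at 7.67, 6.10 and 7.32 FPKM in double KO, 11.6, 9.88 and 10.5 in Taz KO and 11.6, 13.3 and 10.8 in control. Double KO was apart from both other groups, which overlapped each other. Lss fell by 0.72 (SE 0.11, limma adjusted p = 0.00263). Exons of Lss overlap an antisense gene.

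Cyp51 encodes the demethylase that acts on lanosterol. It was at 32.0, 20.0 and 31.7 FPKM in double KO, 40.8, 31.7 and 38.4 in Taz KO and 41.3, 44.9 and 43.2 in control. Both knockout groups lay below control, and Taz KO 2 matched the upper double KO libraries. Cyp51 fell by 0.65 in double KO (SE 0.18, limma adjusted p = 0.0274). The call was lost without any 1 control library (adjusted p = 0.0718, 0.0733 and 0.0729 without control 1, 2 and 3) or without a filter on low values (0.0550), and its exons overlap Akap9 on the other strand.

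Tm7sf2, the gene of a sterol reductase of the endoplasmic reticulum, was at 7.11, 6.58 and 6.09 FPKM in double KO, 10.1, 8.997 and 9.51 in Taz KO and 10.6, 11.5 and 9.21 in control. Here double KO 2 was not the lowest of its group, and all 3 libraries lay below the rest. Tm7sf2 fell by 0.62 (SE 0.10, limma adjusted p = 0.0028), and it shares exon sequence with Vps51 on the same strand.

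Msmo1 and Nsdhl encode a methyl sterol oxidase and a sterol dehydrogenase that together strip methyl groups from the ring. Msmo1 was at 32.8, 23.2 and 30.9 FPKM in double KO, 48.0, 42.0 and 44.8 in Taz KO and 40.3, 42.0 and 42.4 in control. Double KO was apart from both groups, and Taz KO reached above control. Msmo1 fell by 0.53 in double KO (SE 0.12, limma adjusted p = 0.016, and 0.0519 without control 3). It lies on chromosome 8, whose genes were shifted upwards against control in both knockout groups, as given for Mvd, and the part of that shift was not tested. Nsdhl was at 10.9, 8.23 and 11.01 FPKM in double KO, 16.9, 13.2 and 16.7 in Taz KO and 17.01, 19.4 and 17.3 in control. The 3 groups did not overlap, and Nsdhl fell by 0.81 in double KO (SE 0.13, limma adjusted p = 0.0035), to 56.1% of control.

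Hsd17b7, the reductase gene that completes this demethylation, was at 3.19, 2.36 and 3.17 FPKM in double KO, 4.66, 3.32 and 3.65 in Taz KO and 4.06, 4.57 and 4.04 in control. It had the lowest level of the late genes and a call that depended on single libraries. It fell by 0.48 (SE 0.14, limma adjusted p = 0.038), with adjusted p of 0.0560, 0.0887 and 0.0597 without double KO 1, 2 and 3, 0.0537 without Taz KO 3, and 0.0930, 0.106 and 0.0785 without control 1, 2 and 3. It was 0.0813 without the libraries numbered 2 and 0.0838 without a filter on low values.

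Dhcr7, which encodes the reductase of the last step to cholesterol, was at 25.6, 21.9 and 23.9 FPKM in double KO, 34.8, 27.4 and 31.2 in Taz KO and 32.5, 33.6 and 29.9 in control. The double KO libraries were the 3 lowest. Dhcr7 fell by 0.42 (SE 0.10, limma adjusted p = 0.0183, and 0.0530 without double KO 3, 0.0694 without control 1 and 0.0586 without control 2). Of the 2 late genes that were not called, Ebp, the sterol isomerase gene, averaged 16.5 ± 3.51 FPKM in double KO, 18.9 ± 3.83 in Taz KO and 19.3 ± 1.05 in control (log2 fold change -0.24, limma adjusted p = 0.357). Sc5d, the desaturase gene, averaged 14.4 ± 1.30, 14.9 ± 0.662 and 14.6 ± 1.30 FPKM (log2 fold change -0.02, 95% interval -0.23 to 0.19, limma adjusted p = 0.907).

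All 19 sterol enzymes had a negative log2 fold change in double KO against control, except that Sc5d was at 0.06 with equal library totals, 0.02 with quantile normalization, 0.06 without double KO 2, 0.05 without control 3 and 0.04 without the libraries numbered 2. The late enzymes (8 of 10 called, median -0.58) and the early ones (4 of 9 called, median -0.52) differed little in their medians, and no test of that difference was made. Without any 1 control library 5 late and 3 early enzymes were called. The medians were -0.41 for the late and -0.37 for the early enzymes without double KO 2, and -0.39 and -0.32 without the libraries numbered 2. The early genes that were not called were Hmgcs1, Mvd, Idi1, Ggps1 and Fdft1, and the fit with the replicate block added Hmgcs1 and Idi1. Scaling all libraries to equal totals left the 12 sterol calls and the medians at -0.45 for the early and -0.50 for the late enzymes.

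**Figure D3:**
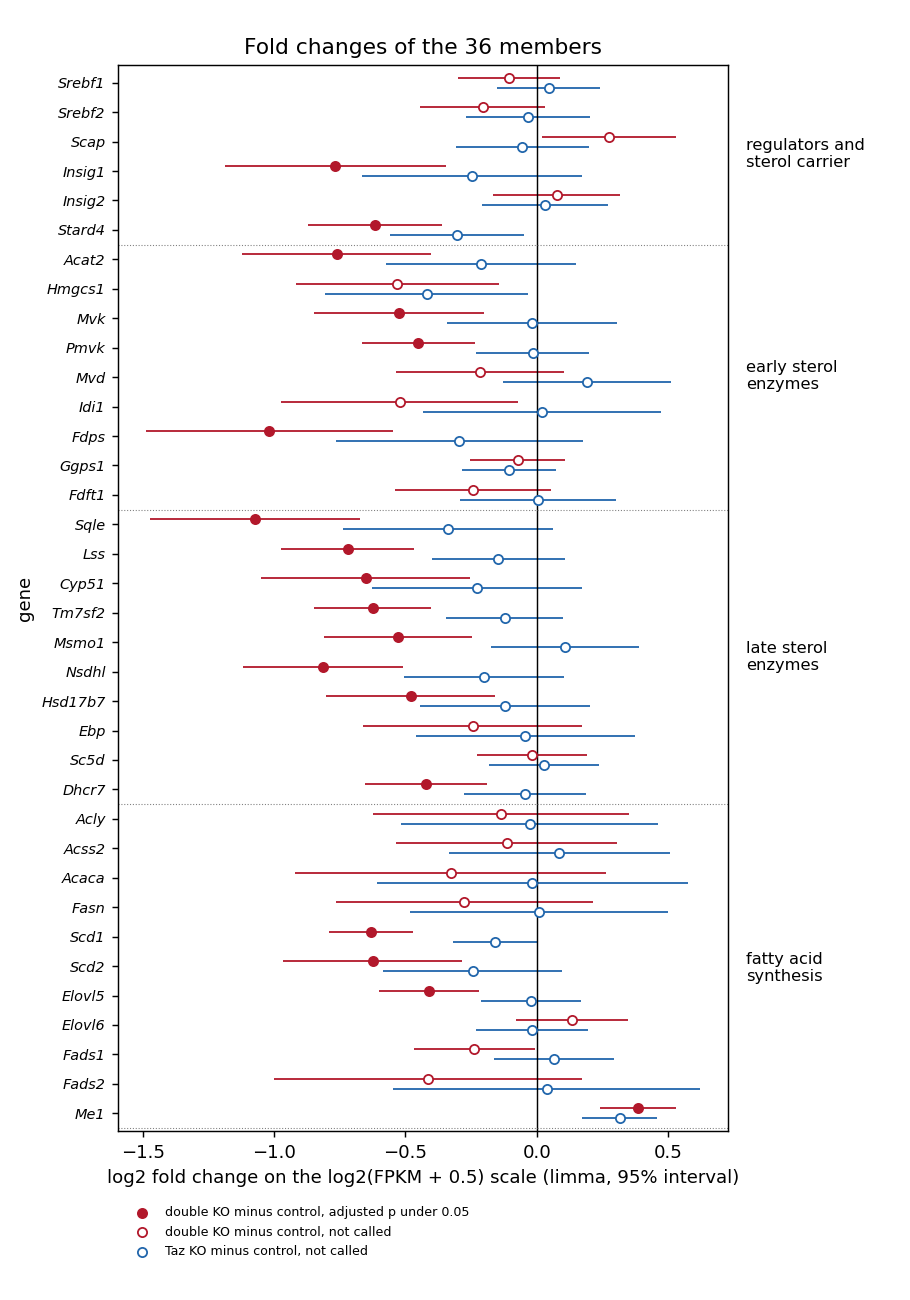
Log2 fold change of each gene against control (x axis, limma on log2(FPKM + 0.5), bars are 95% intervals) for double KO (red) and Taz KO (blue), with filled points for an adjusted p under 0.05. The double KO points of the sterol enzymes all lie left of 0, from -1.07 for Sqle to -0.02 for Sc5d (which was 0.06 with equal library totals and 0.02 with quantile normalization), and no Taz KO point is filled.

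Of the 11 fatty acid genes, 3 of the 6 genes of desaturation and elongation fell in double KO, Scd1, Scd2 and Elovl5. The other members of that step (Fads1, Fads2 and Elovl6) and the genes of the core route that makes palmitate (Acly, Acaca and Fasn) did not pass the threshold. Over the 11 genes the median log2 fold change was -0.27, against -0.53 over the 19 sterol enzymes, a difference that was described and not tested. Without double KO 2 these medians were -0.11 and -0.38, without the libraries numbered 2 they were -0.13 and -0.35, and with quantile normalization -0.13 and -0.44.

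Scd1 and Scd2 encode stearoyl-CoA desaturases, which put the double bond into oleate and palmitoleate. Scd1 was at 72.1, 71.4 and 67.8 FPKM in double KO, 101, 98.1 and 94.98 in Taz KO and 103, 115 and 109.9 in control. The 3 groups did not overlap, and double KO 2 did not stand apart from its group. Scd1 (ENSMUSG00000037071, chr19:44394455-44407879, - strand of mm10) fell by 0.63 (SE 0.07), with the smallest adjusted p of the members (limma, 0.000614). Scd2 had the highest level of the members, at 252, 181 and 259 FPKM in double KO, 322, 252 and 322 in Taz KO and 343, 349.9 and 362 in control. Both knockout groups lay below control, and Taz KO 2 lay at the level of double KO 1. Scd2 fell by 0.62 (SE 0.15, limma adjusted p = 0.0174, and 0.0552 without control 1 and 0.0566 without control 3). The desaturase genes are close copies on chromosome 19, and reads may be split between them.

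Elovl5 encodes an elongase of polyunsaturated fatty acids. It was at 23.8, 22.1 and 25.3 FPKM in double KO, 31.9, 29.9 and 31.8 in Taz KO and 30.03, 34.9 and 30.3 in control. Double KO was apart from both groups, which overlapped each other. Elovl5 fell by 0.41 (SE 0.08, limma adjusted p = 0.0093).

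Me1 moved the other way. It encodes cytosolic malic enzyme, which makes NADPH for lipid synthesis. Me1 was at 21.3, 22.2 and 22.4 FPKM in double KO, 21.5, 20.0 and 21.3 in Taz KO and 16.9, 16.3 and 16.97 in control. All 6 knockout libraries lay above all 3 control libraries, and the knockout groups overlapped. Me1 (ENSMUSG00000032418, chr9:86581371-86695953, - strand of mm10) rose by 0.39 in double KO (SE 0.06, limma adjusted p = 0.00347), to 132% of control. Exons of Me1 overlap an antisense gene.

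The genes of the core route were low in library 2 of both knockout groups. Fasn, the gene of fatty acid synthase, was at 81.8, 49.6 and 81.2 FPKM in double KO, 94.8, 64.5 and 97.7 in Taz KO and 84.5, 78.5 and 88.5 in control. Acly, which encodes the citrate lyase that supplies cytosolic acetyl-CoA, was at 128, 82.5 and 132 FPKM in double KO, 137, 89.9 and 142 in Taz KO and 124, 117 and 128 in control. Acaca, the gene of the carboxylase that makes malonyl-CoA, was at 7.48, 4.01 and 7.52 FPKM in double KO, 8.75, 5.38 and 9.63 in Taz KO and 7.84, 6.94 and 8.70 in control. In all 3 genes library 2 was the lowest of every group, most clearly in the knockout groups, and double KO 1 and 3 lay close to control.

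Their log2 fold changes in double KO were -0.27 for Fasn, -0.14 for Acly and -0.33 for Acaca (limma adjusted p = 0.376, 0.675 and 0.383). Acaca had an adjusted p of 0.0489 with the replicate block. Without the libraries numbered 2 the log2 fold changes were -0.08 for Fasn, 0.04 for Acly and -0.13 for Acaca (adjusted p = 0.188, 0.462 and 0.23). Acss2, the gene of the synthetase that makes acetyl-CoA from acetate, had the lowest level of the members. It averaged 1.08 ± 0.348 FPKM in double KO, 1.29 ± 0.134 in Taz KO and 1.19 ± 0.205 in control (limma adjusted p = 0.685 for double KO against control). Its exons overlap Ggt7 and Gss on the other strand.

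The remaining fatty acid genes were not called. Fads2, which encodes the delta-6 desaturase, was at 55.5, 29.3 and 56.0 FPKM in double KO, 74.0, 47.0 and 67.7 in Taz KO and 60.8, 54.3 and 65.9 in control, again with library 2 the lowest of each group. Its log2 fold change was -0.41 (limma adjusted p = 0.267, 0.0284 with the replicate block, and 0.0661 without the libraries numbered 2). Fads1, the delta-5 desaturase gene beside it, averaged 41.3 ± 4.90 FPKM in double KO, 51.0 ± 4.14 in Taz KO and 48.6 ± 1.17 in control, with all double KO libraries below the rest (log2 fold change -0.24, limma adjusted p = 0.115, 0.0231 with the block). Elovl6, which lengthens palmitate to stearate, averaged 45.7 ± 2.26, 41.1 ± 3.20 and 41.7 ± 4.22 FPKM (log2 fold change 0.14, limma adjusted p = 0.318, and 0.23 with adjusted p = 0.029 without the libraries numbered 2). With the replicate block 6 fatty acid genes were called lower and 1 higher, in place of 3 and 1.

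**Figure D4:**
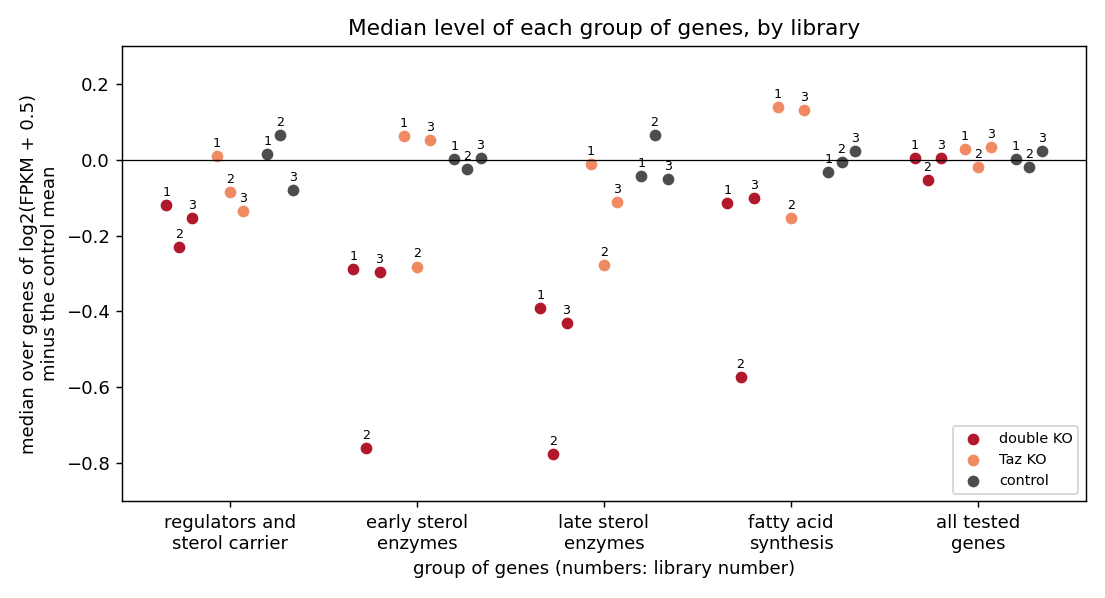
Median over the genes of each role of log2(FPKM + 0.5) minus the control mean (y axis), for each library (points, numbered by library) of double KO, Taz KO and control, with all 11674 tested genes at the right. In double KO the early and late sterol medians lie below all control libraries, at -0.29 or lower, while the fatty acid median is -0.11 and -0.10 in libraries 1 and 3 and -0.57 in library 2.

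By library, the median of the early sterol enzymes relative to control was -0.29, -0.76 and -0.29 in double KO and 0.06, -0.28 and 0.05 in Taz KO. That of the late enzymes was -0.39, -0.78 and -0.43 in double KO and -0.01, -0.28 and -0.11 in Taz KO. That of the fatty acid genes was -0.11, -0.57 and -0.10 in double KO and 0.14, -0.15 and 0.13 in Taz KO. The sterol medians were thus below control in every double KO library, and in Taz KO clearly so in library 2 alone. The median of all tested genes lay between -0.05 and 0.03 in every knockout library.

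The comparison of Taz KO with control asks what differs in cells labelled as lacking Taz alone. None of the 36 members passed the threshold: limma called 0 of 36, as did limma-voom on recovered reads, where 0.565% of all tested genes fell and 0.72% rose. At an unadjusted p under 0.05, 3 of 36 members differed (8.33%), against 12.8% of all tested genes. Hmgcs1 and Stard4 were lower and Me1 was higher. The median log2 fold change was -0.03 over the members, -0.11 over the sterol enzymes and -0.02 over the fatty acid genes, where all tested genes had 0.01.

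Me1 was the nearest to a call in Taz KO, with a log2 fold change of 0.32 (SE 0.06, limma adjusted p = 0.0544) and all 3 Taz KO libraries above control. Its adjusted p was 0.00703 with the replicate block, which called 1 of 36 members where 4.05% of all genes were called lower and 7.78% higher. It was 0.0407 without a filter on low values, 0.0429 among genes with a mean of at least 5 FPKM and 0.0468 with equal library totals. Stard4 had a log2 fold change of -0.30 (adjusted p = 0.276) and Hmgcs1 one of -0.42 (adjusted p = 0.332), and the Taz KO values of both lay wholly below control. In all, values did not overlap for 7 members that were lower (Stard4, Hmgcs1, Sqle, Cyp51, Nsdhl, Scd1 and Scd2) and 1 that was higher, where 7.84% and 10.9% of all tested genes were apart.

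Without the libraries numbered 2, the median in Taz KO against control was 0.02 for the sterol enzymes and 0.14 for the fatty acid genes, where all libraries gave -0.11 and -0.02. Without Taz KO 2 alone, the sterol median was -0.03, with 10 enzymes negative and 9 positive, and the fatty acid median was 0.13. Without control 3 alone the fatty acid median was 0.01. The fit without the libraries numbered 2 called 2 members higher, Mvd (log2 fold change 0.34, limma adjusted p = 0.0254) and Me1 (0.33, adjusted p = 0.037), where 2.42% of all genes were called higher and 1.2% lower. Mvd lies on chromosome 8, whose genes had a median of 0.35 in this comparison.

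The comparison of double KO with Taz KO, which differ by the labels in Yap, gave 10 members that fell and 0 that rose, where 7.45% of all tested genes fell and 6.42% rose. Over all genes 870 fell and 750 rose, and with equal library totals 700 fell and 992 rose. The 10 were the early enzyme genes Mvk and Pmvk, the late enzyme genes Sqle, Lss, Tm7sf2, Msmo1, Nsdhl and Dhcr7, and the fatty acid genes Scd1 and Elovl5. Every double KO library lay below every Taz KO library for 16 members and above for 1, Scap, where 16.5% and 14.1% of all tested genes were apart in these directions. The median log2 fold change was -0.37 over the 36 members, -0.44 over the early, -0.46 over the late and -0.30 over the fatty acid genes, against -0.04 over all tested genes. Without double KO 2 the medians were -0.23 over the members, -0.31 over the early, -0.40 over the late and -0.15 over the fatty acid genes. Sqle had -0.73, Msmo1 -0.64, Nsdhl -0.61, Lss -0.57 and Scd1 -0.47 (limma adjusted p = 0.0283, 0.0138, 0.0206, 0.0136 and 0.00513). Tm7sf2 had -0.50, Pmvk -0.44, Elovl5 -0.39, Mvk -0.51 and Dhcr7 -0.38 (adjusted p = 0.0139, 0.0200, 0.0202, 0.0480 and 0.0421).

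With the replicate block 22 members fell and 1 rose in double KO against Taz KO, where 25.6% of all genes fell and 16.8% rose. The 13 added were Srebf1, Insig1, Stard4, Acat2, Mvd, Idi1, Fdps, Cyp51, Hsd17b7, Scd2, Fads1 and Fads2, with adjusted p from 0.00198 (Fdps) to 0.0494 (Srebf1), and the rise of Scap (0.0312). Without the libraries numbered 2 the count was 22 lower and 2 higher, with 22.1% and 14.5% of all genes. Within same-numbered pairs the median sterol enzyme differed by -0.48, -0.48 and -0.44, so this difference was of similar size in all 3 pairs, and 16 of 19 sterol enzymes were lower in all 3, as were 39.8% of all tested genes. This comparison shares its double KO libraries with the one against control.

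Single libraries decided several calls of double KO against Taz KO. Of the 10, Scd1 kept its call in each of the 9 fits without 1 library and lost it with quantile normalization (adjusted p = 0.107). Without Taz KO 1, Scd1 was the only member called, with adjusted p of 0.0636 for Lss, 0.0646 for Msmo1, 0.0656 for Tm7sf2, 0.0895 for Nsdhl, 0.0888 for Pmvk, 0.0856 for Elovl5, 0.114 for Sqle, 0.167 for Mvk and 0.154 for Dhcr7. Without Taz KO 3, 3 members were called (Scd1, Lss and Msmo1), with 0.0504 for Tm7sf2, 0.0724 for Nsdhl, 0.0726 for Pmvk, 0.0695 for Elovl5, 0.0860 for Sqle, 0.152 for Mvk and 0.116 for Dhcr7. Without Taz KO 2, 16 were called. Without double KO 1 the adjusted p was 0.0579 for Pmvk, 0.0643 for Elovl5 and 0.0681 for Dhcr7. Without double KO 2 it was 0.103 for Mvk and 0.0919 for Dhcr7, and without double KO 3 it was 0.0557 for Tm7sf2, 0.0548 for Sqle, 0.123 for Mvk and 0.109 for Dhcr7. The fits without a control library lost Mvk and Dhcr7 (0.0569 to 0.0786), and the one without control 1 also Sqle (0.0516). Fitted on the libraries of the compared groups alone, 3 members were called, Lss (0.0407), Tm7sf2 (0.0343) and Scd1 (0.0270). Without a filter on low values Mvk (0.0939), Sqle (0.0582) and Dhcr7 (0.0673) were not called.

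Other genes of lipid metabolism were read from lists around the members. In double KO against control 12.9% of all tested genes fell and 12.4% rose. With the replicate block these shares were 28.1% and 24.2%. The lists are short, several of their counts lie near these shares, and none was tested against them. Of 5 further sterol enzymes 2 fell in double KO against control and 0 rose. Acat1, the gene of the mitochondrial thiolase, had a log2 fold change of -0.51 (limma adjusted p = 0.0213), and Aacs, the gene of acetoacetyl-CoA synthetase, one of -0.72 (adjusted p = 0.0263). Of 10 genes of the non-sterol isoprenoid branch 2 fell and 0 rose, namely Fntb (-0.79, adjusted p = 0.0019), a farnesyltransferase subunit gene, and Pdss2 (-0.28, adjusted p = 0.0452). With the block 3 further sterol enzymes fell, and 4 isoprenoid genes fell and 1 rose. Of the 9 fits that each left out 1 library, Acat1 was called in 6, Aacs in 5 and Pdss2 in 1, and leaving out control 1 gave 0.0776, 0.0824 and 0.142.

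Of 11 genes of SREBP processing and sterol sensing 2 fell and 3 rose in double KO against control. Erlin2 (0.44, limma adjusted p = 0.0133), which lies on chromosome 8, was among those that rose, and Erlin1 (-0.30, adjusted p = 0.0283) fell. The genes of chromosome 8 had a median of 0.30 in this comparison, and the part of that shift in Erlin2 was not tested. Of 12 tested genes of sterol uptake, transport and storage 0 fell and 2 rose, Npc2 (0.48, adjusted p = 0.00284), which encodes a lysosomal cholesterol carrier, and Osbp (0.29, adjusted p = 0.0243), an oxysterol-binding protein gene. With the block 3 of these fell and 5 rose. Erlin2 was called in 7 of the 9 fits, Osbp in 5 and Erlin1 in 5. The highest adjusted p came without control 1 for Erlin2 (0.0606) and Osbp (0.0922), and without double KO 1 for Erlin1 (0.0971).

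Of 15 tested further genes of fatty acid synthesis and elongation 3 fell and 1 rose in double KO against control. Slc25a1, which encodes the citrate carrier that feeds cytosolic acetyl-CoA, was at 33.6, 28.4 and 33.3 FPKM in double KO, 47.6, 40.7 and 44.1 in Taz KO and 57.1, 58.1 and 53.0 in control. The 3 groups did not overlap, and Slc25a1 fell by 0.81 (limma adjusted p = 0.000753). Acacb (-0.97, adjusted p = 0.00467), the gene of the mitochondrial acetyl-CoA carboxylase, and Elovl2 (-0.49, adjusted p = 0.0248) also fell, and Elovl2 was called in 4 of the 9 fits (0.0759 without control 2). With the block 4 fell and 3 rose.

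Of 5 genes of cytosolic NADPH supply 2 fell and 0 rose, the pentose phosphate genes Tkt (-0.52, limma adjusted p = 0.00664) and Taldo1 (-0.69, adjusted p = 0.0125, and 0.0511 without control 1), and with the block 4 fell and 1 rose. Of 15 genes of acyl-CoA synthetases and glycerolipid synthesis 4 fell and 1 rose, including Acsl5 (0.55, adjusted p = 0.00691), Chka (-0.52, adjusted p = 0.0155, called in 5 of the 9 fits, 0.0646 without control 1) and Acsl4 (-0.52, adjusted p = 0.017, called in 7 of the 9 fits, 0.0612 without control 3). Of 12 tested genes of fatty acid beta-oxidation, which breaks fatty acids down, 4 fell and 1 rose. Ech1 (-0.40, adjusted p = 0.0044) and Acads (-0.46, adjusted p = 0.00671) were among those that fell. With the block 6 glycerolipid genes fell and 1 rose, and 6 beta-oxidation genes fell and 2 rose. In Taz KO against control the main fit called 0 genes of these lists, and the fit with the replicate block called some. The block called 4.05% of all tested genes lower and 7.78% higher in this comparison. Calls under the other alternatives were not counted over these lists. The calls with the block included Erlin2, which was higher (log2 fold change 0.41, limma adjusted p = 0.00481). Slc25a1 and Fntb were lower (0.0198 and 0.0179). Erlin2 lies on chromosome 8, whose genes had a median of 0.35 in this comparison, and the part of that shift was not tested.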

How the data were processed

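Poly(A) RNA from 9 libraries was sequenced with a directional kit, per the labels' protocols. The authors deposited FPKM values per gene, and TopHat2 2.1.1, HTSeq 0.6.1, DESeq2 and mm10 are named in the submitters' processing notes; the annotation release and strand setting are, in the sources used here, not given. The FPKM values of all 24621 genes above 0 came out as whole reads (100% within a tolerance of 0.001), 19.1 to 24.0 M per library, on a shared scale of size factors.

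Genes with a mean of at least 1 FPKM (11674) were tested on log2(FPKM + 0.5) with limma 3.58.1 in R 4.3.3, in a group-means model over all 9 libraries with trended variances, two-sided, with Benjamini-Hochberg adjustment over all tested genes and a threshold of 0.05. Fold changes on this scale understate the change of low genes. Same-numbered libraries deviated together (correlations of 0.192 to 0.711 over 9 pairs, against -0.688 to 0.394 over 18 others). The numbers were therefore taken to pair them, and the pairing comes from the values, not the labels. Deviations from a group mean cancel out within the group, so part of this contrast is built in. Number 1 was the least clear, as double KO 1 correlated more with control 3 (0.274) than with control 1 (0.192). Alternatives were other pseudocounts, filters, scalings, limma-voom on recovered reads, the compared groups alone, the replicate block, leaving out chromosomes 6, 8, 14 and Y, and leaving out each library. Of these fits, the group-means fit alone was tested on simulated data, with independent noise and no pairing of the libraries.

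The members and the lists around them were chosen with earlier results of these data known. Members called in any comparison, and Srebf1, Srebf2, Scap, Insig1 and Insig2, are given by library. Positions are from GENCODE M21, promoters from RefSeq. Beyond the overlaps given above, exons of Scap, Hmgcs1, Idi1 and Elovl6 overlap genes annotated on the other strand. Those of Scd2 overlap a microRNA gene on the same strand.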

Additional observations from a re-analysis of the deposited data

How the results depend on the processing

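No member reversed among called values under the alternatives run. Genes called in double KO against control numbered 2948, with 6112 under the replicate block, 4889 without the libraries numbered 2 and 1505 to 3568 without single libraries. In Taz KO against control there were 150, with 1381 under the replicate block, 423 without the libraries numbered 2, 88 from the compared groups alone, 63 without chromosomes 6, 8, 14 and Y, and 11 to 230 without single libraries. In double KO against Taz KO there were 1620, with 4947 under the replicate block, 4277 without the libraries numbered 2, 635 from the compared groups alone and 482 to 2648 without single libraries. Members called numbered 18 in double KO against control, 12 to 18 without single libraries (12 without control 1) and 25 under the replicate block. Members called in Taz KO against control numbered 0, and 1 with equal totals, a mean of at least 5 FPKM, no filter or the replicate block, and 2 without the libraries numbered 2. In double KO against Taz KO they numbered 10, with 3 from the compared groups alone, 23 under the replicate block, 24 without the libraries numbered 2 and 1 to 16 without single libraries. The cause of these changes was not tested, beyond that leaving out libraries leaves fewer samples. The 95% interval of Fasn in double KO against control ran from -0.77 to 0.22 (log2). A fall of moderate size was therefore not excluded for it. With the same 3 libraries a group, the SE was 0.22 for Fasn and 0.07 for Scd1.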
